A study of Mus musculus with 24 samples.

Results

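Uninjured quadriceps muscle of 2 inbred mouse strains was compared across all genes that the deposited expression matrix names. The comparison set the 3 uninjured libraries of MRL/MpJ (MRL) mice against the 3 uninjured libraries of C57BL/6 (B6) mice, 6 of the 24 libraries of the series. It covered 14159 genes with a symbol, of 14160 rows. The other 18 libraries, 3 in each of 6 groups, came from quadriceps of the same strains 21 days after a volumetric muscle loss injury that was filled with saline, decellularized extracellular matrix (ECM) or polyethylene (PE). They were used for the estimate of the spread and as a second measure of the difference between the strains. The methods name female mice of both strains from 1 supplier, and no transgene or engineered allele was given in the sources used here. The mice that were operated on were young adults. The age of the uninjured mice and the time of day at which muscle was collected were not given in the sources used here. The labels and methods name the libraries as independent samples without stating that each came from its own mouse, so p-values measure the spread between these libraries.

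MRL is an inbred strain known for closing ear wounds and for a tendency to autoimmunity, and it carries an intact Fas gene, unlike the related substrain in which lpr disrupts it. B6 is the strain from which the mouse reference genome was made, so its reads match the reference more closely than those of MRL. The effect of that on the levels was not tested. Inbred strains differ at inherited segments, among them the major histocompatibility complex (MHC) on chromosome 17, and in the copy number of some genes. The substrain C57BL/6J carries a known deletion in Nnt, which encodes a mitochondrial transhydrogenase.

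Levels are log2 CPM (counts scaled to the size of the library), and each library was made from bulk muscle by poly(A) selection. Fewer cells of a type and less RNA per cell cannot be told apart in such data. The lowest log2 CPM, -3.65, was that of a count of 0 in each library, and 3 counts corresponded to -2.33 at the mean effective library size of 25149678. The deposited values keep no depth for single libraries. Pearson's correlation of log2 CPM across genes lay between 0.95 and 0.973 for the pairs of libraries within both uninjured groups. Defining markers of skeletal muscle fibres were high in all 6 libraries. The 8 fibre markers, among them Acta1, Ckm and Ttn, summed to 118950, 129642 and 164847 CPM in the MRL libraries and to 115793, 116395 and 143946 CPM in the B6 libraries.

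Between the uninjured strains, 368 of 14159 genes were called (2.60%) by limma at a Benjamini-Hochberg adjusted p under 0.05. Of these, 191 were higher in MRL mice (1.35%) and 177 were lower (1.25%). Fold changes are given throughout as MRL minus B6 on the log2 scale, so genes with more RNA in MRL mice have positive values. Differences were large. The median absolute log2 fold change of the called genes was 2.00, 299 of them exceeded 1, and 122 exceeded 3, against a median SD of 0.24 among MRL libraries and 0.26 among B6 libraries over all genes. In all 368 the 3 MRL libraries lay apart from the 3 B6 libraries, which held for 21.8% of all genes. The median log2 fold change over all genes was 0.00. The called genes included 62 of 231 annotated pseudogenes (26.8%) but 284 of 13498 protein-coding genes (2.1%), and pseudogenes were mostly higher (52) rather than lower (10). Some called genes with pseudogene symbols had the same values in every uninjured library, such as Rpl35a-ps2, Rpl35a-ps3, Rpl35a-ps4 and Rpl35a-ps6. Counts of called genes therefore hold some repeated values.

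Most of these differences were also called in injured muscle. The 18 injured libraries share none with the 2 uninjured groups, but they enter the common estimate of the spread behind both sets of calls, and 235 of the 368 calls remained with the 6 uninjured libraries alone. The injured difference was the mean of the MRL minus B6 differences after saline, ECM and PE, and 2057 genes were called there (14.5%), 996 higher (7.03%) and 1061 lower (7.49%). Of the 368 genes called between uninjured strains, 319 were also called after injury, which is 86.7% of the uninjured calls and 15.5% of the injured calls. The direction was shared by 318 of these (86.4% of the uninjured calls). Slc4a1, the chloride and bicarbonate exchanger of red blood cells, was called in both with opposite signs. Library 2 of the PE-treated MRL mice stood apart from the rest. It correlated with the other two of its group at 0.812 and 0.827, while the other pairs of injured libraries of a group lay between 0.904 and 0.976. Without it, which was an alternative chosen after seeing the data, 475 genes were called between uninjured strains (3.35%), all 368 among them, and 4824 after injury (34.1%).

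**Figure D1:**
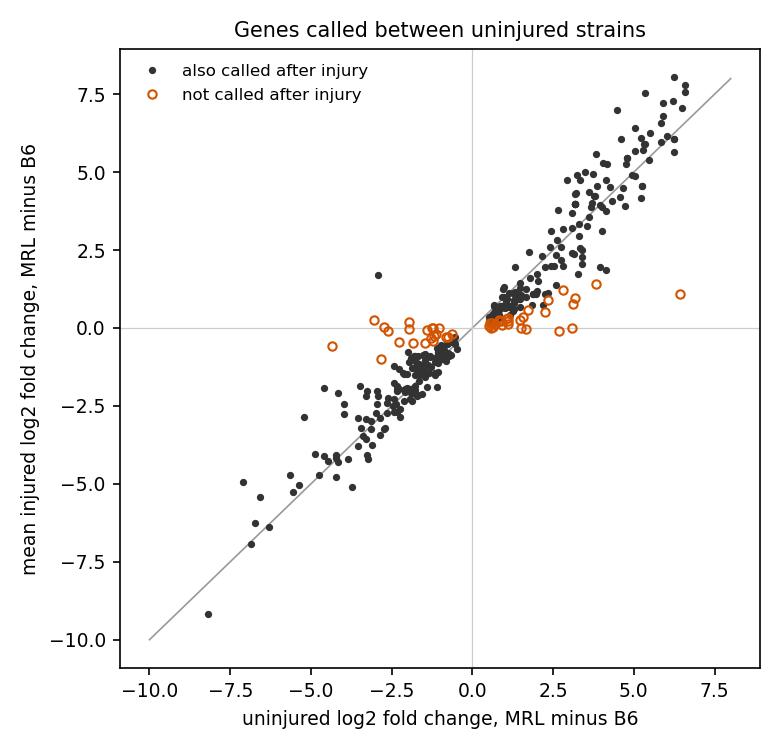
Each point is 1 of the 368 genes called between uninjured strains, with its uninjured log2 fold change on the x axis and the mean of its 3 injured log2 fold changes on the y axis, both MRL minus B6. Filled points mark the 319 genes also called after injury, open orange points the rest, and the grey line marks equal differences. Of the 368 points, 359 lie where both differences have the same sign.

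The uninjured differences in the plot of uninjured against injured values run from -8.18 to 6.59. The open points include the clock genes Dbp and Npas2, the globin gene Hba-a2 and Slc37a4, which are described with their values further on.

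Genes of the circadian clock differed between the uninjured strains. The clock is a feedback loop in which the activators Arntl and Clock (or its relative Npas2) drive the repressors Per and Cry as well as the output factor Dbp, and it runs in muscle fibres as in most cells. Of 17 clock genes, 4 were higher in MRL mice and 1 was lower (29.4% called, against 2.60% of all genes). Their median log2 fold change was 0.60 against 0.00 over all genes. The strains did not overlap in 12 of the 17, against 21.8% of all genes. Per1, a repressor whose promoter is bound by the activators at E-boxes, was higher in MRL mice. The 250 bases before a RefSeq start of Per1 (GRCm38.p6, plus strand, chr11:69098699-69098948) hold a CACGTG E-box at position -166 from that start, in capitals.

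Per1 promoter: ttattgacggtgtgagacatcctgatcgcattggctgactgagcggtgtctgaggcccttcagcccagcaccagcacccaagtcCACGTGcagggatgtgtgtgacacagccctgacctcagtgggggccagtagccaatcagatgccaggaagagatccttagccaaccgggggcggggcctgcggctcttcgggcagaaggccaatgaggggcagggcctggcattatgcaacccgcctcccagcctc

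CACGTG, which reads the same on both strands, was found in this window of 5 of the 15 clock genes with a promoter in the RefSeq table (Per1, Cry1, Tef, Ciart and Bhlhe41), against 1854 of all 27025 genes (6.86%) and 6.02% of the 32851 promoters of that length. The window before the second RefSeq start of Per1 holds none. Of the other called clock genes, Dbp, Per3 and Npas2 have no CACGTG in this window, and Per2 had no promoter in the table. Cry1, Tef, Ciart and Bhlhe41, which have one, were not called. The D-box letters TTATGTAA, searched on both strands, were found in 1 of the 15 (Per3), in 0.977% of all genes and in 0.819% of all promoters. A match is a description of the letters in this window only.

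Dbp, a transcription factor of the clock's output, had log2 CPM of 5.43, 5.63 and 6.63 in the MRL libraries and of 3.25, 2.94 and 2.14 in the B6 libraries. Every MRL library was above every B6 library, and the log2 fold change was 3.12 (SE 0.54, limma adjusted p = 0.00136), or 8.7-fold. Per2, a repressor, stood at 3.99, 3.75 and 3.99 in MRL mice and at 1.54, 1.27 and 2.35 in B6 mice. The groups again did not overlap, with a log2 fold change of 2.19 (SE 0.38, limma adjusted p = 0.00153).

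Per1 stood at 6.51, 6.14 and 5.92 in MRL mice and at 3.16, 4.58 and 5.29 in B6 mice, so that the B6 libraries spread widely but stayed below the MRL libraries. Its log2 fold change was 1.85 (SE 0.39, limma adjusted p = 0.00899), and the call was lost without MRL replicate 1 (adjusted p = 0.056) and with only the 6 uninjured libraries in the fit (0.165). Per3 was higher by 1.47 (SE 0.37, limma adjusted p = 0.033) and Npas2, an activator, was lower by a log2 fold change of -2.27 (SE 0.59, limma adjusted p = 0.0421). Npas2 stood at 0.74, 1.17 and 0.22 in MRL mice and at 2.40, 2.96 and 3.57 in B6 mice. The calls of Per3 and Npas2 were lost when any 1 of the 6 uninjured libraries was left out, with adjusted p from 0.0633 to 0.175 for Per3 and from 0.0524 to 0.226 for Npas2. The list had 2 or 3 calls in those fits.

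Other clock genes did not pass the test. Bhlhe40, a repressor that responds to the activators, had a log2 fold change of 1.04 (limma adjusted p = 0.0522) and Ciart, another repressor, one of 1.75 (adjusted p = 0.136). Arntl, the main activator, had one of -0.76 (adjusted p = 0.211). Nr1d1, a repressor of Arntl, was at 7.20, 7.20 and 7.52 in MRL mice and at 7.30, 7.51 and 7.07 in B6 mice, with a log2 fold change of 0.01 (adjusted p = 0.996). After injury 3 of these 5 genes were called, and all 5 log2 fold changes were smaller in size. The injured log2 fold change was 0.76 for Dbp (adjusted p = 0.104), 0.73 for Per2 (adjusted p = 0.0333), 0.75 for Per1 (adjusted p = 0.0299), 0.68 for Per3 (adjusted p = 0.0382) and -0.44 for Npas2 (adjusted p = 0.378). The difference between the uninjured and the injured contrast of Dbp was 2.36 (unadjusted p = 0.00123) and that of Per2 was 1.46 (unadjusted p = 0.00372), and neither passed the adjustment over all genes. Without library 2 of the PE-treated MRL mice, Dbp was called after injury with a log2 fold change of 0.98 (limma adjusted p = 0.0116). Clock genes cycle over the day, and the hour of collection was not given in the sources used here, so its part in these values was not tested.

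**Figure D2:**
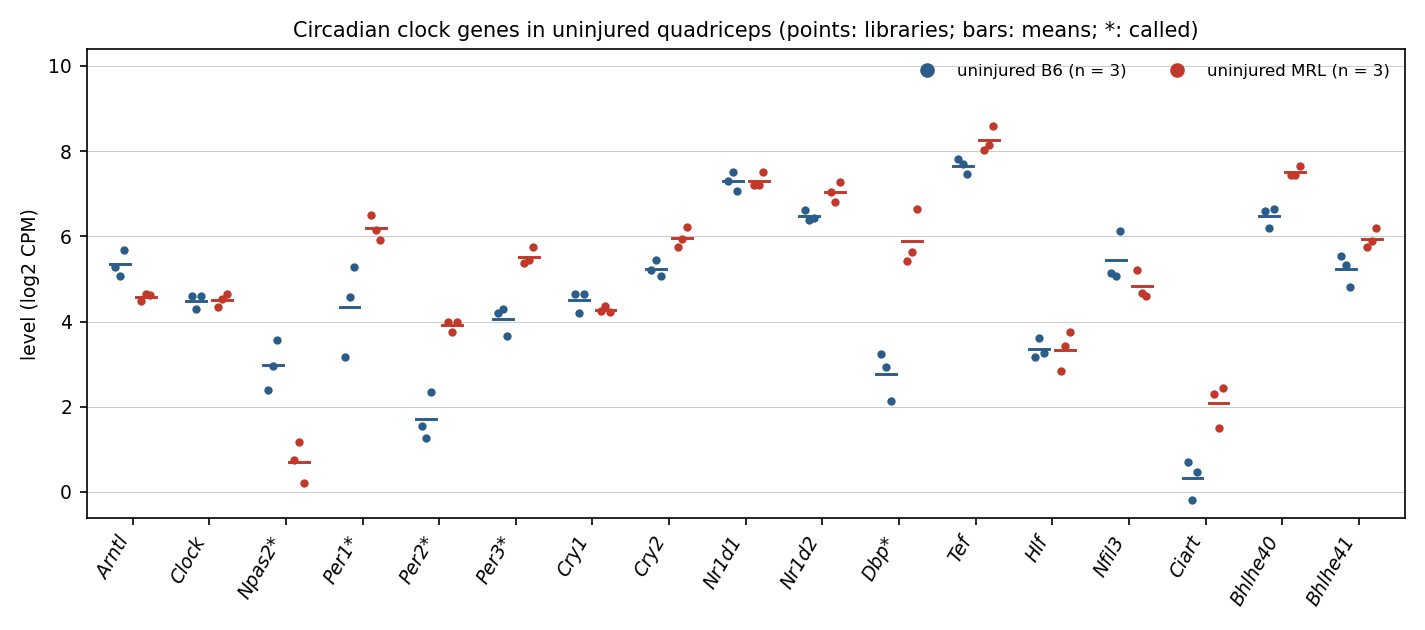
Log2 CPM (y axis) of the 17 clock genes (x axis) in the 3 uninjured B6 libraries (blue) and the 3 uninjured MRL libraries (red). Points are libraries, bars are means, and an asterisk marks the 5 called genes, in which the red and blue points stand apart, while those of Nr1d1 and Clock overlap.

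The plot of the clock genes by library shows that the Per genes and Dbp were higher in every MRL library than in every B6 library and Npas2 lower, and that Nr1d1 and Clock, with a log2 fold change of 0.02, overlapped.

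MHC class I genes, whose classical members display peptides to T cells, differed between the strains. The classical genes H2-D1 and H2-K1 were both lower in MRL mice, and the 1 gene called higher was nonclassical. Of 15 measured genes of the class I list, 4 were lower and 1 was higher in MRL mice (33.3% called), with a median log2 fold change of -0.54. H2-D1 (chr17:35481691-35486475, GRCm39) stood at 4.45, 5.14 and 4.21 in MRL mice and at 7.32, 8.47 and 7.45 in B6 mice. All B6 libraries were above the MRL libraries by more than the spread within either group, and the log2 fold change was -3.15 (SE 0.42, limma adjusted p = 6.72e-05). H2-K1, the other classical gene, had a log2 fold change of -2.04 (SE 0.44, limma adjusted p = 0.0113), a call that was lost without B6 replicate 2, MRL replicate 1 or MRL replicate 3 (adjusted p from 0.0681 to 0.0953).

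Nonclassical class I genes of the Q region lie beside H2-D1. H2-Q6 stood at -1.91, -1.62 and -1.29 in MRL mice and at 3.73, 4.2 and 3.36 in B6 mice, which is a log2 fold change of -5.37 (SE 0.46, limma adjusted p = 1.93e-07), and H2-Q7 differed by -3.86 (SE 0.43, limma adjusted p = 6.66e-06). H2-Q1 went the other way, with 0.26, 2.16 and 0.96 in MRL mice against -1.99, -2.05 and -2.09 in B6 mice (log2 fold change 3.17, limma adjusted p = 0.00518). These genes are near-identical in sequence and kallisto can divide reads between them, so their separate values are uncertain. H2-Q5, a Q-region gene outside the list, differed by -2.28 (SE 0.54, limma adjusted p = 0.0248). That call was kept without MRL replicate 2 and lost without any other uninjured library (adjusted p from 0.0503 to 0.203). Summed over the 15 genes, the log2 level was 8.33 ± 0.81 in the MRL libraries and 9.64 ± 0.70 in the B6 libraries (SD, n = 3 each), a difference of -1.31. This sum holds B2m and Cd1d1 and leaves out H2-Q5, so it is not a sum of near-identical copies alone. The list median of -0.54 became -0.01 without B6 replicate 2, the library with the highest class I sum at 1400 CPM. B2m, the shared light chain, had a log2 fold change of -0.63 (limma adjusted p = 0.727), and H2-T23 one of 0.03.

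MHC class II genes present peptides to CD4 T cells, and 10 of them were measured, of which 1 was higher and 1 lower (20% called, median -0.67). H2-Ea-ps, the class II alpha chain gene of the E molecule that the B6 haplotype is known not to express, stood at 2.46, 3.36 and 2.03 in MRL mice and at -1.36, -2.28 and -1.94 in B6 mice. The groups were far apart, with a log2 fold change of 4.48 (SE 0.64, limma adjusted p = 0.00017) and of 7.0 after injury. H2-DMb1, a peptide-loading chain, differed by -2.87 (limma adjusted p = 0.03), and by -1.44 when summed with its near-identical copies. That call was lost in 5 of the fits without 1 library, all but the one without MRL replicate 2 (adjusted p from 0.0705 to 0.137). H2-Ab1 (log2 fold change -1.17, adjusted p = 0.431) and the invariant chain Cd74 (-0.69, adjusted p = 0.724) did not pass. None of 11 peptide-loading and immunoproteasome genes passed the limma test (0 at an unadjusted p under 0.05, median -0.37), and none of 20 complement genes (2 at an unadjusted p under 0.05, median -0.42).

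Interferon-induced genes had lower means in MRL mice as a group, and few of them passed the test. Of 25 interferon-stimulated genes, 24 had a lower mean in MRL mice, 12 had an unadjusted p under 0.05 (10.9% of all genes did), and 2 were called lower (8.0%). The median was -0.88. Rsad2, the antiviral enzyme viperin, stood at 0.37, 0.34 and -0.62 in MRL mice and at 3.68, 3.40 and 2.80 in B6 mice. No library overlapped, and the log2 fold change was -3.27 (SE 0.50, limma adjusted p = 0.000343). Ifit3, an antiviral RNA-binding family member, differed by -2.38 (SE 0.54, limma adjusted p = 0.0182), a call lost without B6 replicate 1, B6 replicate 2, MRL replicate 1 or MRL replicate 3 (adjusted p from 0.0683 to 0.13). Summed with its copy I830012O16Rik it differed by -0.18. Irf7, a transcription factor of the interferon response, had a log2 fold change of -1.26 (adjusted p = 0.319). After injury 17 of the 25 were called lower and 0 higher, with a median of -1.20.

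Interferon-inducible GTPases and guanylate-binding proteins act against pathogens inside cells, and 17 of 18 had a lower mean in MRL mice (2 called lower, 11.1%, median -0.78). Gvin1, a very large GTPase, stood at -3.65, -3.65 and -0.52 in MRL mice, with a count of 0 in 2 libraries, and at 4.36, 4.24 and 4.19 in B6 mice. This is a log2 fold change of -6.87 (SE 0.62, limma adjusted p = 3.88e-07), and it was -6.93 after injury. Gbp7 differed by -1.06 (SE 0.26, limma adjusted p = 0.0266), a call kept without MRL replicate 2 and lost without any other uninjured library (adjusted p from 0.0626 to 0.168). Gbp2 had a log2 fold change of -1.33 (adjusted p = 0.0609) and was called without MRL replicate 2 (adjusted p = 0.0223).

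The Ifi200 family encodes sensors of DNA clustered on chromosome 1, and 1 of its 10 genes was higher and 2 were lower in MRL mice (30% called, median -0.76). Ifi202b (chr1:173790134-173810414, GRCm39), which B6 mice are known to express weakly, stood at 0.59, 1.66 and 0.71 in MRL mice and at -2.24, -3.04 and -2.22 in B6 mice. This is a log2 fold change of 3.49 (SE 0.67, limma adjusted p = 0.00376) and 4.99 after injury, and on a log2(CPM + 1) scale, which damps low levels, it was 1.42 and not called (adjusted p = 0.216). Mnda differed by -2.25 (limma adjusted p = 0.00648, and 0.053 without MRL replicate 3) and Pydc3 by -1.50 (limma adjusted p = 0.00973, and 0.0571 to 0.0614 without B6 replicate 2 or MRL replicate 3). Both are uncertain because of copies, with which they sum to differences of -1.11 and -0.26. Ifna2 is listed by the matrix at 1.74, 1.89 and 2.50 in MRL mice and at -3.65, -3.65 and -3.00 in B6 mice, a type I interferon gene with a log2 fold change of 5.48 (SE 0.50, limma adjusted p = 3.79e-07).

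Genes of autoimmunity and immune cells were mostly below the threshold. Of 13 genes linked to lupus, all had a lower mean in MRL mice (median -0.58) and 1 was called (7.69%). That gene was Fas, the death receptor, at 1.32, 1.89 and 0.22 in MRL mice and at 2.09, 3.00 and 2.72 in B6 mice. The lowest B6 library was close to the highest MRL library, and the log2 fold change of -1.46 (SE 0.34, limma adjusted p = 0.0199) was lost as a call without B6 replicate 2, B6 replicate 3 or MRL replicate 3 (adjusted p from 0.0864 to 0.165). Of 22 chemokine genes 1 was higher (4.55% called, median -0.19), Ccl19, a ligand that guides T cells and dendritic cells. It differed by 2.01 (limma adjusted p = 0.0445) and was no longer called without B6 replicate 1, B6 replicate 2, MRL replicate 1 or MRL replicate 3 (adjusted p from 0.123 to 0.298), or with the 6 uninjured libraries alone (0.168).

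T cell genes were near the floor. Of 7 measured T and NK cell markers 1 was higher and 2 were lower (42.9% called, median -0.67), and their summed level was 2.32, 2.93 and 1.99 CPM in MRL mice and 4.11, 4.39 and 3.68 CPM in B6 mice. Cd3e, a chain of the T cell receptor complex, stood at -2.97, -3.65 and -3.65 in MRL mice, all below 3 counts, and at 0.48, -0.78 and -0.10 in B6 mice (limma adjusted p = 0.00542, and 0.0612 on the log2(CPM + 1) scale). Cd3d differed by -1.89 (limma adjusted p = 0.0357) and was not called when any 1 library was left out (adjusted p from 0.0705 to 0.172). Cd4, a coreceptor of helper T cells that some macrophages also carry, was in the opposite direction, at 0.18, 0.32 and 0.35 in MRL mice against -1.23, -1.13 and -1.77 in B6 mice (log2 fold change 1.66, SE 0.39, limma adjusted p = 0.0209). Its call was lost without B6 replicate 3 or any of the MRL libraries (adjusted p from 0.0568 to 0.12), and its injured log2 fold change was -0.03.

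A mast cell tryptase separated the strains. Tpsb2 (chr17:25585170-25588079, GRCm39), a secreted tryptase, stood at 2.29, 2.05 and 0.68 in MRL mice and at a count of 0 in all 3 B6 libraries, which makes it at least 29.1-fold higher against a floor of 3 counts per library (limma adjusted p = 1.66e-08). The neighbouring tryptase Tpsab1 had a log2 fold change of 2.62 (adjusted p = 0.0507, and 0.0422 without MRL replicate 3). Cpa3, the mast cell carboxypeptidase, stood at 1.75, 1.47 and 0.41 in MRL mice and at 2.04, 1.35 and 2.33 in B6 mice. Those groups overlapped (log2 fold change -0.70, adjusted p = 0.707). Summed over 8 mast cell markers, of which 1 was called (12.5%), the level was 25.4, 24.9 and 11 CPM in MRL mice and 24.2, 24.9 and 27.3 CPM in B6 mice. After injury 6 of the 8 were higher in MRL mice with a median of 2.24, and Cpa3 had a log2 fold change of 2.36 (adjusted p = 7.92e-06). The difference between the 2 contrasts of Cpa3 was -3.05 (unadjusted p = 3.74e-05).

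Other leukocyte markers did not pass the limma test. None of 8 macrophage markers was called (0 at an unadjusted p under 0.05, median -0.53), and their summed level overlapped at 78.6, 123 and 52.8 CPM in MRL mice and 109, 93.1 and 136 CPM in B6 mice. None of 4 neutrophil markers (0 at an unadjusted p under 0.05, median -1.02), of 4 B and plasma cell markers (1 at an unadjusted p under 0.05, median -0.37) or the eosinophil marker Ear2 (log2 fold change -1.03) was called.

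**Figure D3:**
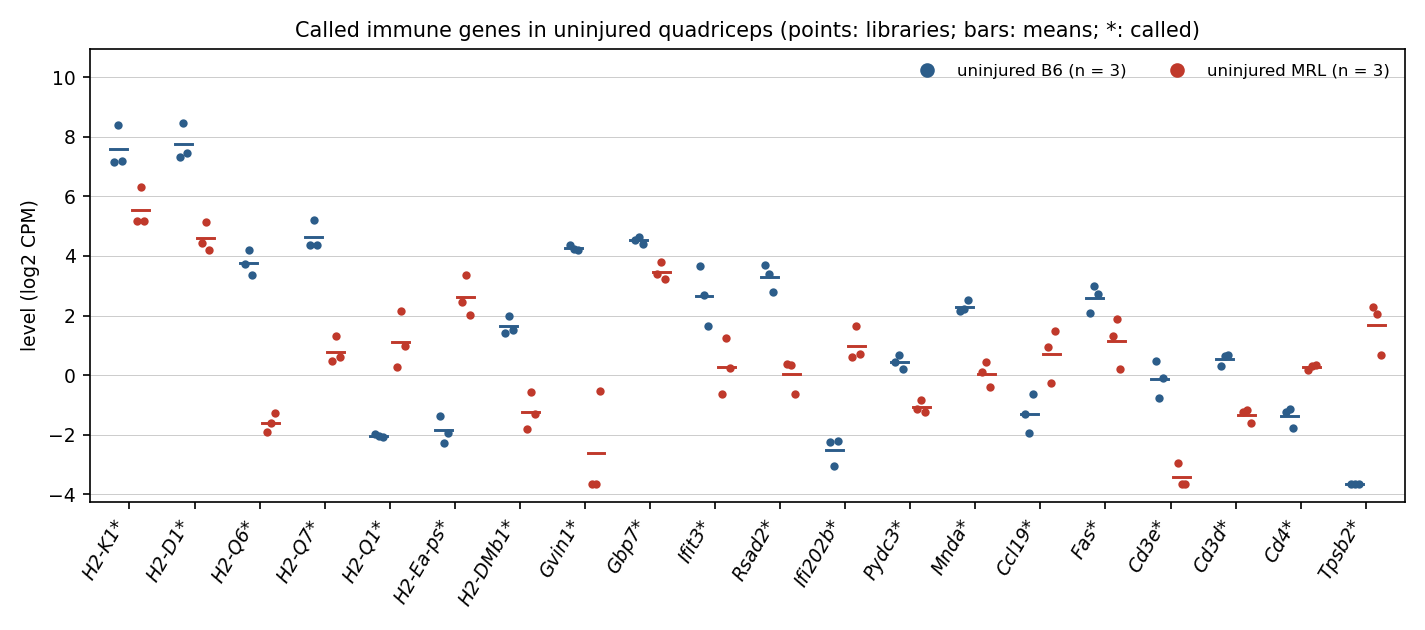
Log2 CPM (y axis) of 20 called immune genes (x axis) in the 3 uninjured B6 libraries (blue) and the 3 uninjured MRL libraries (red), with points for libraries and bars for means. Gvin1, H2-Q6 and Tpsb2 show the widest gaps, and Fas, Ccl19 and Ifit3 have narrow ones, and their calls depended on single libraries.

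The plot of immune genes by library shows 2 kinds of difference. H2-Q6, Gvin1 and Tpsb2 were at or near the floor in 1 strain only, while Gbp7, H2-K1 and Fas were expressed in both at different levels.

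Red blood cell genes varied widely between libraries. All 6 measured erythroid genes had lower means (median -1.87) and 2 were called lower (33.3%). Hba-a2, an alpha globin gene, stood at 6.83, 3.56 and 4.60 in MRL mice and at 9.51, 8.72 and 9.85 in B6 mice (log2 fold change -4.36, limma adjusted p = 0.00107). Its near-identical copy Hba-a1 had a log2 fold change of -0.20, and the sum of both was 1543, 230 and 259 CPM in MRL mice and 1236, 735 and 1618 CPM in B6 mice, with MRL replicate 1 inside the range of B6. Slc4a1 was at -0.25, -2.57 and -2.44 in MRL mice and at 0.17, 1.90 and 1.4 in B6 mice (log2 fold change -2.91, limma adjusted p = 0.0344), and was lost without B6 replicate 2, B6 replicate 3, MRL replicate 2 or MRL replicate 3 (adjusted p from 0.134 to 0.197). After injury Slc4a1 was higher in MRL mice by 1.70 (adjusted p = 0.0107).

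Genes known to differ between inbred strains were listed with earlier results of these data known, so they are no independent check of the strain labels. Of 12 measured genes with known copy number or null alleles, 3 were higher in MRL mice and 0 lower (25.0% called, median 0.83), namely Alad, Ifi202b and H2-Ea-ps. Alad (chr4:62423283-62438587, GRCm39), an enzyme of heme synthesis whose copy number differs between strains, stood at 5.68, 5.77 and 5.74 in MRL mice and at 4.29, 4.74 and 4.16 in B6 mice. The MRL libraries were almost level, and the log2 fold change was 1.33 (SE 0.27, limma adjusted p = 0.00632) and 1.96 after injury. Nnt stood at 8.70, 7.0 and 7.46 in MRL mice and at 6.04, 3.91 and 5.32 in B6 mice. Its log2 fold change of 2.63 (SE 0.71) missed the threshold (adjusted p = 0.0584), passed it without B6 replicate 1 (adjusted p = 0.0473), and was 3.15 after injury (adjusted p = 2.07e-05).

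The largest differences of named genes outside the immune lists had varied functions. B4galnt2, a glycosyltransferase, stood at 3.62, 2.86 and 2.67 in MRL mice and at -1.37, -0.50 and -1.95 in B6 mice (log2 fold change 4.32, SE 0.44, limma adjusted p = 2.10e-06). Opn1mw, a cone opsin gene on the X chromosome, stood at 2.01, 2.37 and 3.07 against -3.28, -1.85 and -2.50 (log2 fold change 5.03, limma adjusted p = 0.000129). After injury the log2 fold change was 4.07 for B4galnt2 and 4.87 for Opn1mw, both in the uninjured direction. Slc37a4, the glucose 6-phosphate transporter of the endoplasmic reticulum, stood at 3.57, 4.86 and 5.35 in MRL mice, and at a count of 0 in B6 replicates 1 and 3 but at 1.79 in B6 replicate 2. Its log2 fold change was 6.43 (SE 1.08, limma adjusted p = 0.00104), and it missed the threshold when only the 6 uninjured libraries were fitted (adjusted p = 0.102). After injury it was 1.10 (adjusted p = 0.226).

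Among genes lower in MRL mice, Pttg1, the securin that delays the separation of sister chromatids, stood at 1.12, -0.20 and 0.37 against 5.47, 5.06 and 5.33 in B6 mice (log2 fold change -4.86, SE 0.39, limma adjusted p = 8.09e-08). Rab6b, a small GTPase of Golgi traffic, stood at -2.02, -1.06 and 0.04 against 4.54, 5.01 and 4.38 (log2 fold change -5.66, SE 0.54, limma adjusted p = 8.05e-07). B6 libraries were tight in both genes, with SDs of 0.21 and 0.33. Major urinary proteins are pheromone carriers made mainly in liver, and their genes form a cluster on chromosome 4. Mup18 stood at -0.97, -1.71 and -2.33 in MRL mice and at 5.13, 5.10 and 3.68 in B6 mice (log2 fold change -6.31, limma adjusted p = 6.71e-05). The 13 measured members are near-identical, and their sum was 1.09, 5.67 and 1.53 CPM in MRL mice and 58, 62.8 and 24.1 CPM in B6 mice, a difference of -4.33.

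The called genes were also placed along the genome. Among the autosomes, the share of tested genes called was highest on chromosome 17 (29 of 659, 4.4%), followed by chromosomes 13 (3.95%) and 4 (3.54%), and lowest on chromosome 16 (0.964%). Of 525 windows of 5 Mb with a tested gene, 20 held at least 4 called genes, and these held 105 of the 349 called genes with a position. There were 7 to 12 such windows without single uninjured libraries and 6 among genes with a mean log2 CPM of 1 or more, and no comparison value for chance was made. Between 60 and 65 Mb of chromosome 4, 8 of 36 genes were called (22.2%), which were Alad, the vacuolar pump subunit Atp6v1g1, Wdr31 and the major urinary protein genes Mup10, Mup11, Mup14, Mup16 and Mup18. Between 170 and 175 Mb of chromosome 1, 7 of 75 were called (9.33%), with the Ifi200 genes beside Sdhc. Sdhc, a membrane anchor of succinate dehydrogenase, stood at 9.10, 8.89 and 8.86 in MRL mice and at 7.74, 7.62 and 7.72 in B6 mice (log2 fold change 1.26, SE 0.32, limma adjusted p = 0.0357). It was the one called gene of 99 in the respiratory chain (1.01%, median 0.06), and it was not called when any 1 library was left out (adjusted p from 0.0893 to 0.137).

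No contractile gene passed the test. None of 13 fast fibre genes was called by limma (0 at an unadjusted p under 0.05, median 0.29), nor any of 13 slow fibre genes (0 at an unadjusted p under 0.05, median -0.48). Myh4, the myosin of the fastest fibres, stood at 15.64, 16.07 and 16.32 in MRL mice and at 15.67, 16.08 and 16.26 in B6 mice, which is a log2 fold change of 0.00. Myh7, the slow myosin, varied far more within a strain than between them, at 8.38, 1.70 and 2.87 in MRL mice and 9.38, 2.53 and 6.49 in B6 mice (log2 fold change -1.82, adjusted p = 0.838). Without B6 replicate 1, the library richest in Myh7, the median of the slow list was 0.24. None of 13 developmental myosins and myogenic regulators (0 at an unadjusted p under 0.05, median 0.24), of 14 growth and atrophy genes (2, median 0.04) or of 5 satellite cell markers (0, median -0.11) was called.

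Metabolic genes differed at single points. Pdk4, the kinase that turns off pyruvate dehydrogenase in fasting, was the one called gene of 20 in glycolysis and glycogen metabolism (5%, median 0.16). It stood at 7.83, 6.96 and 6.59 in MRL mice and at 8.01, 9.79 and 11.42 in B6 mice. B6 replicate 1 was close to MRL replicate 1 (log2 fold change -2.61, SE 0.69, limma adjusted p = 0.0482), and the call remained without B6 replicate 1 but not without any other uninjured library (adjusted p from 0.0574 to 0.302), nor with the 6 uninjured libraries alone (0.21). After injury the log2 fold change was -0.10. Of 20 genes of fatty acid uptake and oxidation 19 had a lower mean in uninjured MRL mice and none was called (3 at an unadjusted p under 0.05, median -0.46). After injury 5 of them were called higher and the list median was 0.69.

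Fat cell genes had lower means in MRL mice but spread too widely to pass the test. All 16 white adipocyte genes had a negative log2 fold change (median -1.02), none was called by limma, and 0 had an unadjusted p under 0.05. Their summed level was 1510, 14843 and 3539 CPM in MRL mice and 4653, 22415 and 3364 CPM in B6 mice, highest in replicate 2 of each strain. The median after injury was 1.07. Of 9 brown adipocyte genes none was called (1 at an unadjusted p under 0.05, median -1.42). Ucp1, the uncoupling protein of brown fat, stood at -0.03, 5.72 and 2.03 in MRL mice and at 3.86, 8.14 and 5.84 in B6 mice (log2 fold change -3.37, adjusted p = 0.545). Prdm16, a regulator of brown fat identity, stood at 2.23, 2.35 and 2.34 against 3.65, 4.0 and 3.54. Its groups were far apart, yet the spread shared over all 24 libraries put the log2 fold change of -1.42 at a limma adjusted p of 0.449. With the 6 uninjured libraries alone Prdm16 was called lower (limma adjusted p = 0.0126). The study reports the opposite direction, with significantly higher Prdm16 in uninjured MRL mice. Fasn, the fatty acid synthase, had a log2 fold change of -0.29 (adjusted p = 0.971) and Fabp4, a fatty acid carrier of fat cells and capillaries, one of -1.03 (adjusted p = 0.765).

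No gene of the stromal lists passed the test. Of 7 smooth muscle markers 4 had an unadjusted p under 0.05 and none was called by limma (median -1.02). Acta2, smooth muscle actin, had a log2 fold change of -1.02 (adjusted p = 0.192), and Myh11, smooth muscle myosin, one of -1.29 (adjusted p = 0.237). Schwann cell markers had a median of -1.18 (0 of 8 called, 4 at an unadjusted p under 0.05), with a summed level of 617 CPM in B6 replicate 2 and 67.7 to 211 CPM in the other 5 libraries. None of 23 fibrillar collagen and matrix genes was called (1 at an unadjusted p under 0.05, median -0.24), and none of 7 endothelial (1, median -0.40), 7 fibroblast (0, median -0.32) or 7 tendon and cartilage markers (1, median -0.72). Milk protein genes were present in most libraries, as 6 mammary markers summed to 73.3, 1.61 and 2.46 CPM in MRL mice and to 97.9, 97.7 and 62.9 CPM in B6 mice. None was called (2 at an unadjusted p under 0.05, median -2.69), and Csn3, kappa casein, had a log2 fold change of -5.10 (adjusted p = 0.438).

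Of 18 candidate genes from work on MRL wound healing 1 was called (5.56%, median -0.04), namely Hmgb1, a chromatin protein released by damaged cells. Cdkn1a, the cell cycle inhibitor p21, stood at 5.36, 4.70 and 4.63 in MRL mice and at 4.88, 5.63 and 6.04 in B6 mice. Those values overlapped, with a log2 fold change of -0.62 (SE 0.81, adjusted p = 0.875). Hif1a, the oxygen-responsive transcription factor, had a log2 fold change of -0.02. None of 17 stress and immediate early genes (1 at an unadjusted p under 0.05, median -0.14) or of 13 antioxidant genes with Nnt (2, median -0.06) was called. Of 17 glutathione S-transferases 1 was called lower (5.88%, median -0.05), Gstp2, which differed by -1.69 (limma adjusted p = 0.000282) and by -0.12 together with Gstp1.

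**Figure D4:**
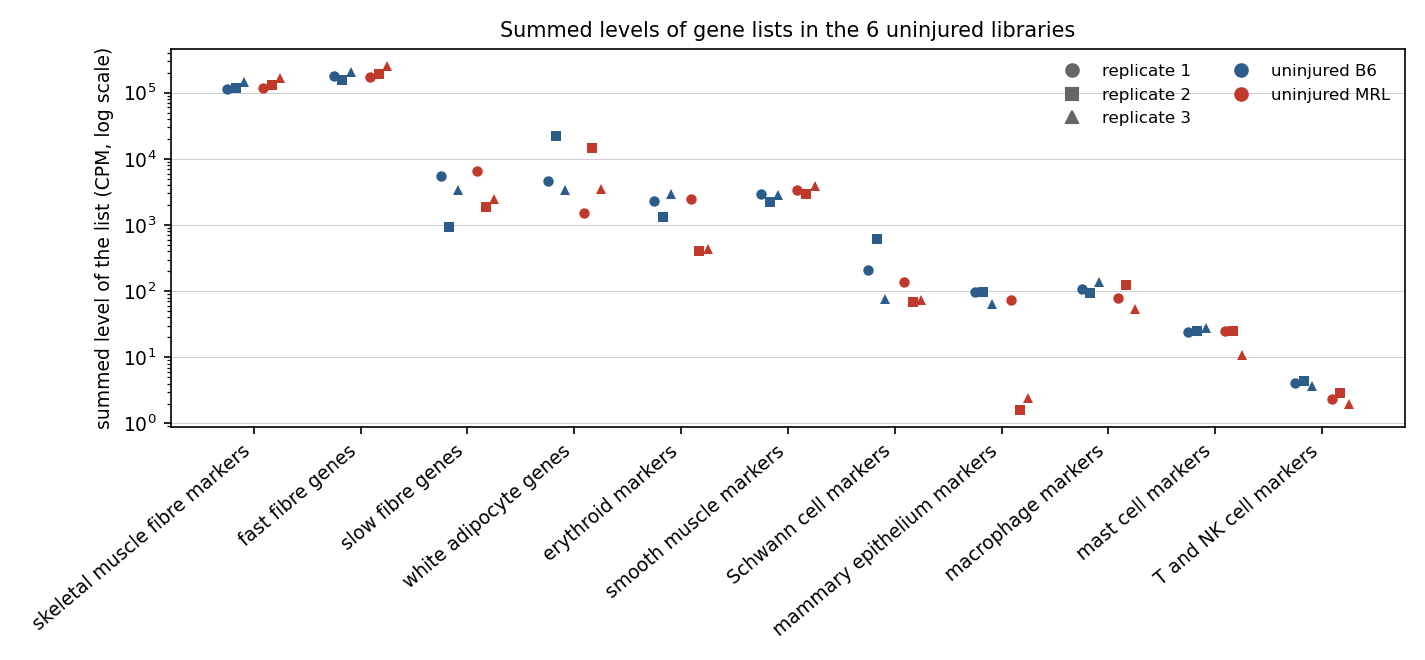
Summed CPM (y axis, log scale) of 11 gene lists (x axis) in the 6 uninjured libraries, with colour for strain (blue B6, red MRL) and symbol for replicate number. The fibre lists overlap between the strains, the T and NK cell list is lower in every MRL library than in every B6 library, and the fat, slow fibre, Schwann cell and mammary lists range widely within a strain.

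The plot of list levels by library shows how far single libraries moved within a strain. MRL replicate 1 was highest of its strain for slow fibre, erythroid and mammary genes, and replicate 2 of each strain was highest for white adipocyte genes. The share of other tissues in the dissected muscle was not measured, and its part in these lists was not tested.

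Many called genes had near-identical copies, among them ribosomal protein genes. Of 84 ribosomal protein genes 1 was higher and 13 were lower (16.7% called), yet the median was -0.03. Summed over these 84 genes, the log2 level was 13.10 ± 0.12 in the MRL libraries and 13.42 ± 0.10 in the B6 libraries (SD, n = 3 each). This sum leaves out copies with symbols of pseudogenes or predicted genes, so it is not the level of the family with its copies. The 3 pairs of transcripts from GRCm39 printed here were chosen because a parent gene was lower in MRL mice while its copy was higher. Each window has 100 bases, and the capital marks the base that differs, with positions counted from 1 at the 5′ end of the window. Rpl34 (chr3:130519106-130524155) encodes a protein of the large ribosomal subunit, and Rpl34-ps1 (chr6:71101594-71101947) is an annotated copy, with 99.4% identity over 354 aligned bases and T51C in the window.

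Rpl34: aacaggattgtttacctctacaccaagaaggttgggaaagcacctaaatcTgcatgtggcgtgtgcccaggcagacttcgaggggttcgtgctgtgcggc
Rpl34-ps1: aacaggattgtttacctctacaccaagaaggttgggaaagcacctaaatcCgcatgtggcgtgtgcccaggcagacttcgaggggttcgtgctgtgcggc

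Rpl34 stood at 2.66, 2.44 and 2.97 in MRL mice and at 6.26, 6.02 and 6.37 in B6 mice, which is a log2 fold change of -3.53. Rpl34-ps1 stood at 4.42, 4.77 and 4.79 against 0.57, 0.34 and 0.95, a log2 fold change of 4.04. The copy was thus above its parent in all 3 MRL libraries and below it in all 3 B6 libraries, and the sum of the gene and its copies differed by -1.26. Rpl26 (chr11:68792344-68797822) and Gm15772 (chr5:3286431-3286868) shared 99.5% identity over 438 bases, with C51T in the window.

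Rpl26: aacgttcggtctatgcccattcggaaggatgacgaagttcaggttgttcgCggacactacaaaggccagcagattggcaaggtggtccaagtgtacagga
Gm15772: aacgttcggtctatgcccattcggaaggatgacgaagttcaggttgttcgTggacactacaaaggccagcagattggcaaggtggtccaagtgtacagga

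Rpl26 stood at 4.95, 4.58 and 4.89 in MRL mice and at 7.07, 6.84 and 6.87 in B6 mice, which is a log2 fold change of -2.12, and Gm15772 at 4.86, 5.06 and 5.23 against -0.76, -1.75 and -1.01, a log2 fold change of 6.22. Parent and copy were at the same height in MRL mice and far apart in B6 mice, and the summed difference was -0.99. Hmgb1 (chr5:148983445-149121815) and Gm15387 (chr15:73965535-73966182) shared 99.8% identity over 648 bases, with A21G in the window.

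Hmgb1: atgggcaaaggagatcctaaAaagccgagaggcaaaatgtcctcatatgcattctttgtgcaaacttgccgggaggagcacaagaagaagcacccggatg
Gm15387: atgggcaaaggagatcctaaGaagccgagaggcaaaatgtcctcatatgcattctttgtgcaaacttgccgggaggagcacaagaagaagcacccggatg

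Hmgb1 stood at 6.92, 6.77 and 7.02 in MRL mice and at 8.0, 7.95 and 7.96 in B6 mice (log2 fold change -1.07, limma adjusted p = 2.03e-05). Gm15387 stood at 5.27, 5.24 and 5.38 against 1.42, -1.85 and 0.29 (log2 fold change 5.35, limma adjusted p = 0.00259). Together with all its copies the difference of Hmgb1 was -0.47.

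Over all calls, 147 of the 349 called genes with a transcript in the annotation had a copy of at least 90% identity in the matrix. The share of all tested genes with such a copy was not measured. Whether copies were more common among called genes was therefore not tested. The median absolute log2 fold change of these 147 was 3.2 for the gene alone and 0.64 for the gene summed with its copies, and the sum differed by less than 1 for 101 of them (68.7%). The genes were chosen for their own difference, and a sum of CPM follows its most abundant member. A smaller summed difference therefore does not show how reads were divided. Both members were called in 96 pairs of copies, 53 in the same and 43 in opposite directions. Some copies had the same values in every uninjured library, such as Gm13841 and Gm8210, or Gm10240 and Gm13370. Such pairs share their direction by construction, so the pairs are not independent of each other. Rplp0, a stalk protein of the ribosome, kept most of its difference in this sum, with 5.16, 4.21 and 4.61 in MRL mice and 9.19, 8.99 and 9.22 in B6 mice. This is a log2 fold change of -4.47 alone and -3.57 with the copies found in the matrix. Copies outside the matrix are not in that sum. Rnaset2b, a lysosomal ribonuclease gene, differed by -6.58 and its copy Rnaset2a by 1.47, and their sum by 0.51. Vcp-rs, a copy of the segregase gene Vcp on the X chromosome, differed by 6.25 alone and by 0.38 with Vcp. How reads of MRL alleles were divided between such copies was not tested.

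**Figure D5:**
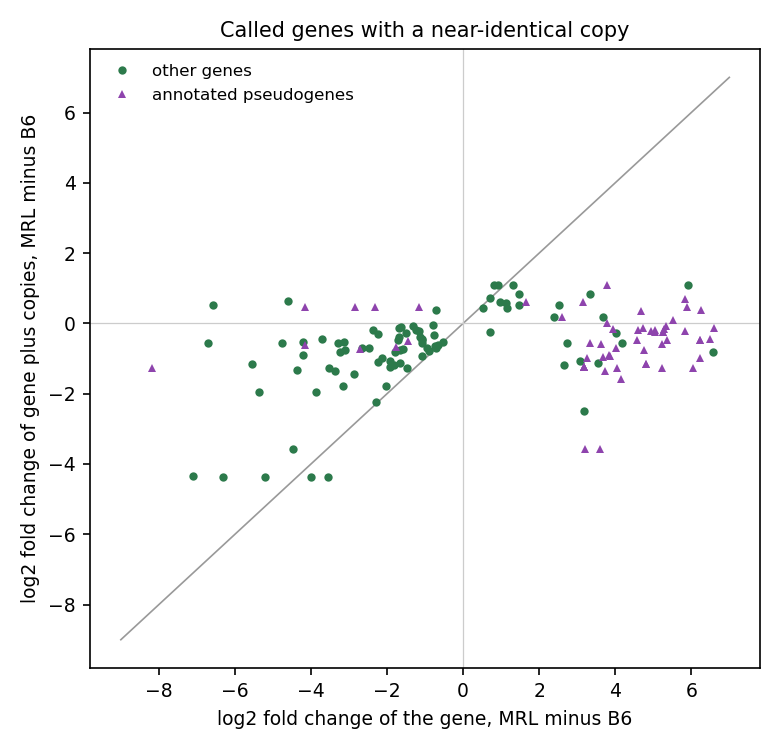
Log2 fold change of each called gene with a near-identical copy (x axis) against that of the gene summed with its copies (y axis), both MRL minus B6 in uninjured muscle. Purple triangles are annotated pseudogenes, green points are other genes and the grey line marks equal values, and 101 of the 147 points lie within 1 of 0 on the y axis.

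In the plot of genes against their summed families, Rplp0 lies near the line of equal values, and the 5 called major urinary protein genes lie at -4.33 or -4.38 on the y axis. Most of the pseudogenes lie to the right of 0 on the x axis.

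The difference between the strains was tested for a change between uninjured and injured muscle. With all 24 libraries, 0 of 14159 genes were called by limma (smallest adjusted p = 0.118), and 1037 had an unadjusted p under 0.05 (7.32%). Among the 368 genes called in uninjured muscle, 84 had an unadjusted p under 0.05 for this change (22.8%). Without library 2 of the PE-treated MRL mice, which stood apart, 50 genes were called (0.353%), of which 41 had an MRL minus B6 difference that was more positive in uninjured than in injured muscle and 9 one that was more negative. In 40 of the 41 the injured difference was itself called lower in MRL mice, and the uninjured difference was the larger in size in 8 of the 50. In 42 of the 50 the sign of the difference was opposite in uninjured and injured muscle. In 27 of the 50 the 3 uninjured MRL libraries lay apart from the 3 B6 libraries, against 21.8% of all genes. The contrast that chose the 50 holds the uninjured difference, so the choice itself favours opposite signs and separate uninjured libraries. The genes given next were chosen from the 50 after their values were seen.

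No list of genes was fixed or tested for this set, and each gene is given for itself. Gpnmb, a glycoprotein of lysosome-rich macrophages, stood at 5.02, 4.60 and 5.08 in uninjured MRL mice and at 1.44, 1.24 and 3.57 in uninjured B6 mice. The MRL libraries were high and tight, and B6 replicate 3 stood above the other B6 libraries. The log2 fold change was 2.82 in uninjured muscle (adjusted p = 0.55 with all libraries and 0.0329 without the library that stood apart) and -2.84 after injury without that library. Mmp12, the macrophage elastase, stood at 5.42, 4.83 and 5.16 against -0.59, -0.04 and 3.78, a log2 fold change of 4.08 (limma adjusted p = 0.461 with all libraries and 0.0633 without that library), and of -3.58 after injury. Without B6 replicate 3 it was 5.45 in uninjured muscle.

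Trem2, a lipid receptor of macrophages, stood at 1.99, 1.66 and 1.86 in MRL mice and at -0.12, -0.11 and 0.38 in B6 mice. Its uninjured log2 fold change was 1.78, not called with all libraries (adjusted p = 0.71) or without the PE-treated one (0.134), but called with the 6 uninjured libraries alone (limma adjusted p = 0.0244). Cd84, a SLAM receptor of leukocytes, stood at 3.55, 3.49 and 3.82 against 1.84, 1.59 and 1.61, a log2 fold change of 1.94 (limma adjusted p = 0.416 with all libraries, 0.00599 without the PE-treated one and 0.00335 with the uninjured libraries alone). Itgax, the integrin CD11c, had one of 1.99 (adjusted p = 0.759, 0.257 and 0.0278 in the same fits). All 3 were lower in MRL mice after injury without that library, by log2 fold changes of -2.60, -1.57 and -3.11, and the change between uninjured and injured muscle was 4.38 for Trem2, 3.52 for Cd84 and 5.10 for Itgax (limma adjusted p = 0.0118, 0.00523 and 0.0271). General macrophage markers were not among the genes apart in uninjured muscle, as Cd68 had an uninjured log2 fold change of 0.40 with overlapping libraries. Cd68 was still called for the change between uninjured and injured muscle without that library (2.44, limma adjusted p = 0.0357). Its injured log2 fold change in that fit was -2.04, so it shared the lower injured level of Trem2, Cd84 and Itgax in MRL mice.

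The 9 genes with a change in the other direction included Cpa3, 4 red blood cell genes and Car4, a carbonic anhydrase. Cpa3 was at -0.70 in uninjured muscle and at 2.39 after injury (change -3.09, limma adjusted p = 0.0271), and Hba-a1 at -0.20 and 3.93 (change -4.12, limma adjusted p = 0.0442), both without the library that stood apart. Slc4a1 was at -2.91 and 1.72 in the same fit (change -4.63, limma adjusted p = 0.0271). Of the 50 genes, 4 were among those called in uninjured muscle, which were Slc4a1, Vcp-rs, Gm13248 and Rpl30. Gm13248, a predicted gene, stood at 0.42, 1.01 and 1.05 in MRL mice and at -2.28, -2.79 and -1.65 in B6 mice, which is a log2 fold change of 3.07 (SE 0.44, limma adjusted p = 0.000179) in uninjured muscle and of -0.10 after injury without that library.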

How the data were processed

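Poly(A)-selected RNA of whole flash-frozen quadriceps was sequenced as paired ends in 24 libraries, 3 in each of 8 groups. The authors estimated transcript levels by kallisto from the Ensembl cDNA of GRCm39, made gene sums by tximport (lengthScaledTPM), kept genes above 1 CPM in at least 3 libraries, scaled with TMM and deposited log2 CPM values with a prior count of 2. Reads were thus divided between near-identical transcripts by estimate, and values near the floor are compressed by the prior. From the lowest value, -3.65, the prior is 0.0795 CPM and the mean effective library size 25149678. Floors of 3 counts, or 0.119 CPM, cover counting error only. Linear CPM is the deposited value without this prior.

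Tests used limma 3.58.1 (R 4.3.3) on the log2 values, with 1 coefficient per group over all 24 libraries, a trend in the prior variance, 2-sided tests and Benjamini-Hochberg adjustment over 14159 genes. The study's precision weights need counts, so the trend took their place. The uninjured contrast was MRL minus B6, the injured contrast the mean of the 3 injured differences, and the third the first minus the second. With 3 libraries per group, the precision of every comparison is limited. On simulated data with 14159 genes and 200 changed, the uninjured contrast called 63% of the genes with a log2 change of 1.5 and 95% at a log2 change of 3, with 9 false calls, and 0 without changes. Copies were sought by BLAST 2.17.0 and counted as near-identical from 90% identity across 50% or more of the shorter transcript. Of the symbols, looked up in GENCODE on GRCm39, 13100 matched by current and 651 by older name, and 408 did not match. Promoters came from RefSeq (GRCm38.p6).

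The comparison, the gene lists and the tests were chosen with earlier results of these data known. Named genes were up to 15 higher and 15 lower with the largest fold change among called genes without overlap (predicted genes, clones and pseudogenes left out), called members of lists, for lists with fewer than 2 calls their 2 highest and 2 most different members, genes the study names for uninjured muscle, the 5 with the smallest p in the third contrast, and near-identical copies of these. Not all are named. Other list members, the Trim genes and the genes of the third contrast described without library 2 of the PE-treated MRL mice were chosen after their values were seen. Alternatives were another pseudocount, a filter on low levels, other scalings, library weights, other samples or prior variances, a replicate block and leaving out single libraries. Python 3.11.15 and pandas 2.3.3 made the summaries and matplotlib 3.10.9 the plots.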

Additional observations from a re-analysis of the deposited data

How the results depend on the processing

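Of 107 named genes called in uninjured muscle, 75 were called in all 15 alternatives for that contrast and 32 were lost in at least 1, and no direction reversed. The 6 uninjured libraries alone also ended, among genes named in the text, the calls of Per1, Slc37a4, H2-K1, H2-Q5, Ifit3, Pydc3, Fas, Cd4, Slc4a1, Ccl19, Pdk4 and Trim34a. Of 634 named genes that were not called, 34 were called in at least 1 alternative, 21 of them only with library weights. The count of 368 stayed within 1.5 times with log2(CPM + 1) (347), libraries scaled to equal totals (302, with the median of all genes shifted by -0.10), quantile normalization (314), the 6 uninjured libraries alone (291), a constant prior variance (382) and a robust one (367). It became 223 (113 higher, 110 lower) among the 11617 genes whose mean log2 CPM reached 1, 878 (471 higher, 407 lower) with library weights, 475 without replicate 2 of the PE-treated MRL mice, and 224 to 285 (118 to 157 higher, 106 to 140 lower) without single uninjured libraries. Genes called for a change between uninjured and injured muscle numbered 0 in the main fit, 1 with quantile normalization, 629 with library weights, 50 without replicate 2 of the PE-treated MRL mice, and 0 to 3 without single uninjured libraries (1 without B6 replicate 2 and 3 without MRL replicate 1). Injured calls numbered 7405 with library weights and 4824 without replicate 2 of the PE-treated MRL mice. Genes called in both contrasts numbered 198 with the filter, 695 with library weights and 217 to 256 without single uninjured libraries. Called members of the gene lists, 31 in the main fit, numbered 18 with the filter, 53 with library weights and 18 to 27 without single libraries. Windows of 5 Mb with at least 4 calls, 20 in the main fit, numbered 6 with the filter, 13 with equal totals, 70 with library weights, 11 with the uninjured libraries alone and 7 to 12 without single libraries. The filter and the fits without a library hold fewer genes or samples, and the cause of these changes in count was not tested. Of 643 list medians compared, 10 moved by more than 1 SD and 21 changed sign. A replicate block called 337 genes (176 higher, 161 lower). Same-numbered libraries of the strains had residual correlations of 0.202, 0.376 and 0.047. B6 replicates 1 and 2 correlated best with the MRL library of their own number, and B6 replicate 3 with MRL replicate 1 (0.131). With 3 libraries per group these values cannot decide whether the numbers pair the libraries. Levels under 3 counts could not be told from 0 at this depth.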

Other observations

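A cluster of Trim genes, ubiquitin ligases that include restriction factors against retroviruses, held 5 called genes between 100 and 105 Mb of chromosome 7, picked here once their values were known. Trim12a stood at -0.45, -1.60 and -0.99 in uninjured MRL mice and at 3.33, 3.32 and 2.96 in uninjured B6 mice (log2 fold change -4.22, SE 0.40, limma adjusted p = 7.73e-07). Trim5 stood at -2.06, -2.20 and -2.28 against 1.12, 0.86 and 0.87 (log2 fold change -3.13, limma adjusted p = 0.000173). Trim12c, near-identical to both, stood at 3.82, 3.95 and 3.75 against 3.37, 3.48 and 3.36 (log2 fold change 0.44, adjusted p = 0.29), and the 3 genes together differed by -0.54. Trim34a was lower in MRL mice by a log2 fold change of -1.92 (limma adjusted p = 0.00392, and 0.0605 with the 6 uninjured libraries alone), its copy Trim34b was higher by 3.07 (limma adjusted p = 0.00502), and their sum differed by -1.06. Trim30d differed by -3.11 (limma adjusted p = 0.00288), and by -0.76 together with Trim30a. How reads were divided between these copies was not tested.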
